A study of Mus musculus with 4 samples.

Results

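The 10 genes described here build the calcium cycle of the muscle fibre, and all 10 were found by symbol among the 51826 rows of a table of expected counts per gene. They are Cacna1s, Ryr1 and Jph1 for calcium release, Atp2a1 and Atp2a2 for calcium pumping, Sln and Pln for control of the pumps, and Casq1, Casq2 and Pvalb for calcium binding. RNA came from the quadriceps of 4 sedentary male mice at about 20 weeks of age, 2 WT and 2 Mef2dα2 Eko, with 1 polyA library from each mouse. Mef2dα2 Eko mice carry a germline deletion, made with CRISPR-Cas9, of the muscle-specific α2 exon of the transcription factor Mef2d, so the exon is lost from every cell and not from muscle fibres alone. Both genotypes were on the C57BL6/J background and came from crosses of heterozygous mice, and the study's text calls the sequenced mice littermates without saying which mice shared a litter. The founder line of the sequenced mice is not given in the labels. The comparison asked whether the transcripts of calcium handling differ between quadriceps with and without the α2 exon.

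In a skeletal muscle fibre the voltage sensor of the t-tubule, the L-type calcium channel built on CACNA1S, is coupled to the ryanodine receptor RYR1 of the sarcoplasmic reticulum, and junctophilin-1 holds the membranes together at the triad. Calcium that leaves through RYR1 starts contraction. It is pumped back by the SERCA pumps, SERCA1 (Atp2a1) in fast fibres and SERCA2 (Atp2a2) in slow fibres and heart. Sarcolipin and phospholamban are small membrane proteins that inhibit the pumps, calsequestrin stores calcium in the lumen, and parvalbumin buffers calcium in the cytosol of fast fibres.

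Sln and Pln encode the smallest proteins of the group, and their reading frames are shown because these pump regulators differ from the pump genes most in size. They are the annotated frames of GENCODE M21 on GRCm38, 5′ to 3′, with the start and stop codons in capitals.
Sln: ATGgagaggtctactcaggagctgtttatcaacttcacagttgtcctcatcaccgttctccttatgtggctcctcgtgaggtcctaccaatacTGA
Pln: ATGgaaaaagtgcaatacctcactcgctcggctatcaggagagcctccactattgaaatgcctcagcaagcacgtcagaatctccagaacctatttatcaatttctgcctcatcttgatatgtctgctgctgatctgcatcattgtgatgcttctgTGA
The frame of Sln held 31 codons before the stop and that of Pln 52. The longest annotated frames held 994 codons in Atp2a1, 1044 in Atp2a2 and 5061 in Ryr1. The transcripts of Sln and Pln shared no stretch of 31 bases with each other or with any other gene, so every such stretch is unique among the annotated transcripts.

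MEF2 proteins bind an AT-rich site, and the 250 bases before the annotated start were searched for the MEF2 motif on both strands. RefSeq promoters of GRCm38.p6 were at hand for 7 of the 10 genes, with 8 starts in all. Sln, Atp2a2 and Jph1 were not among them. The motif was found in 2 of the 8 windows, one of Casq2 and one of Pvalb, and in 2.92% of the 32851 mouse promoters searched in the same way. Both are shown with the match in capitals, next to the window of Casq1, the fast fibre paralog of Casq2, which held no match, meaning only that these letters are absent from the window. Casq2 is chr3:102086165-102086414 on the plus strand, Pvalb is chr15:78206401-78206650 on the minus strand and Casq1 is chr1:172219896-172220145 on the minus strand.
Casq2: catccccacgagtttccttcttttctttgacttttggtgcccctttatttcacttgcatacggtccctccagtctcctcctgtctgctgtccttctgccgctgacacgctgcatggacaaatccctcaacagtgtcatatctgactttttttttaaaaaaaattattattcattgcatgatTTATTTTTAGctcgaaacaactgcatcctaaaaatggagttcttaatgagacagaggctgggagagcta
Pvalb: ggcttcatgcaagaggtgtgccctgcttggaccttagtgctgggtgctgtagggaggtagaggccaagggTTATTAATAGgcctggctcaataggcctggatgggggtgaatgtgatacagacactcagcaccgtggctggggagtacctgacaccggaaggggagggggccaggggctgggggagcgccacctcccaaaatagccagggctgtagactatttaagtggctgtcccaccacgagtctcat
Casq1: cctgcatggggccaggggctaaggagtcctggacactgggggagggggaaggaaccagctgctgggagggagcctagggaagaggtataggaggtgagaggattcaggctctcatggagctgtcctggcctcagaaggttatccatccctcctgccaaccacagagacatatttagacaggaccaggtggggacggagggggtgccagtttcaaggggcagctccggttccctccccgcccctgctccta
The match of Casq2 began 69 bases before the start and that of Pvalb 180 bases before it. A match of letters is not a measured binding site. Neither Casq2 nor Pvalb, whose levels follow, passed the test between genotypes.

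Total counts ran from 72626757 to 85176059 per library, and 3 counts, taken as the lowest level a library can show, came to between 0.0348 and 0.0419 CPM for counting error only. CPM stands for counts scaled to the library total, with TMM scaling. Expression of skeletal muscle genes was very high, with Myh4, the fast IIb myosin, between 64359 and 69587 CPM. Mef2d itself had 259 and 227 CPM in WT and 252 and 241 CPM in Mef2dα2 Eko mice (log2 fold change 0.02, adjusted p = 0.960 by edgeR's quasi-likelihood test), and counts per gene cannot show the loss of 1 exon. The library of WT replicate 1 stood apart. Its chi-square per degree of freedom against each of the other 3 libraries was between 119 and 215, while the other pairs lay between 35.5 and 42.0. Mitochondrial genes took 20.7% of its counts and 15.8% to 17.4% of those of the others. The 10 calcium handling genes took 3.18% of its counts, 3.57% in WT replicate 2 and 3.63% in each Mef2dα2 Eko library. For the 10 genes, the values of WT replicate 1 are therefore given separately. With 2 mice per genotype the smallest p of an exact permutation test is 0.333, so the tests rest on edgeR's model across genes. The p-values weigh each gene against a spread estimated from its own values and those of other genes, in these mice only.

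The levels of the 10 genes spanned several orders of magnitude. Genes were compared per length, as CPM per kb of the gene's merged exons, averaged over the 4 libraries. Atp2a1 was the most abundant at 6678 CPM per kb, which ranked 14 among the 15636 tested genes with a length. Pvalb followed at 3720 CPM per kb (rank 23) and Casq1 at 994 CPM per kb (rank 43). The pump, the cytosolic buffer and the luminal buffer of the fast fibre thus stood above the release apparatus. Ryr1 was at 195, Cacna1s at 147 and Jph1 at 111 CPM per kb. The slow and cardiac forms and the pump regulators came last, with Atp2a2 at 30.3, Casq2 at 7.79, Pln at 5.64 and Sln at 1.08 CPM per kb.

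**Figure D1:**
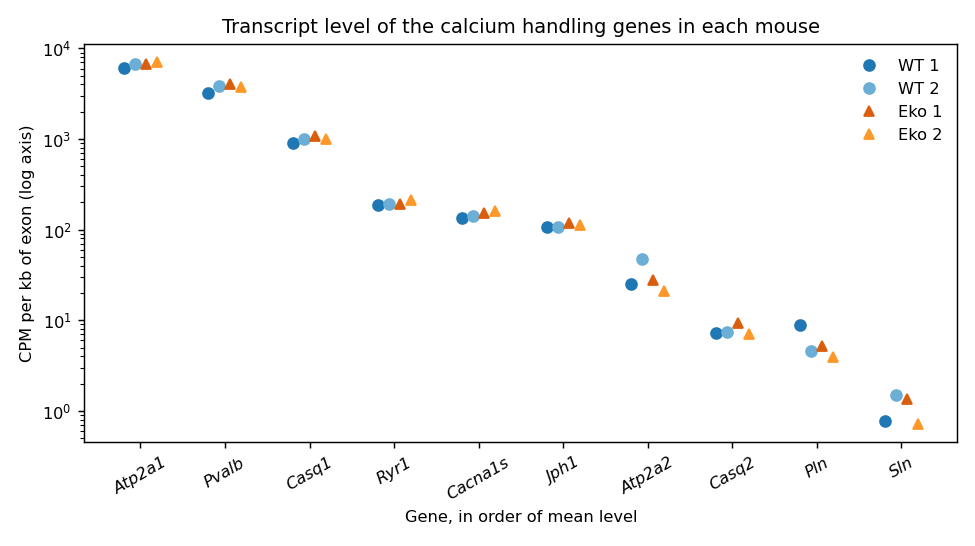
Transcript level of the 10 genes in each of the 4 mice, in CPM per kb of exon on a log axis, with circles for WT and triangles for Mef2dα2 Eko mice. The levels run from about 6678 for Atp2a1 to 1.08 for Sln on average, and the order of the genes is nearly the same in all 4 mice.

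Neighbours in this order did not overlap in any library, except Casq2 and Pln. Casq2 lay between 7.12 and 9.44 CPM per kb and Pln between 3.91 and 8.88, and Pln was above Casq2 in WT replicate 1 alone. The level of Ryr1 depends on the length used. With its longest transcript in place of its merged exons, the WT mean of Ryr1 was 268 in place of 189 CPM per kb, and its place in the order stayed the same. With longest transcripts the WT means of Casq2 and Pln were 7.83 and 7.99 CPM per kb, the reverse of their order by merged exons.

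The fast and slow forms of a protein differed far more than the genotypes did. Per length, Atp2a1 was 220 times as abundant as Atp2a2 and Casq1 was 128 times as abundant as Casq2. Of the summed level per length of the SERCA pair, Atp2a2 made up 0.404% and 0.711% in WT animals, with 0.404% and 0.293% in Mef2dα2 Eko animals. Its share was therefore highest in WT replicate 2 and nearly the same in WT replicate 1 and Mef2dα2 Eko replicate 1. Of the calsequestrin pair, Casq2 made up 0.789% and 0.742% in WT animals, with 0.876% and 0.699% in Mef2dα2 Eko animals. The Mef2dα2 Eko values lay on both sides of the WT values. The members of a pair shared little sequence, as Atp2a1 and Atp2a2 shared 14 stretches of 31 bases and Casq1 and Casq2 shared 0.

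None of the 10 genes passed the test between genotypes. With edgeR's quasi-likelihood test and Benjamini-Hochberg adjustment over 16120 genes, 0 of the 10 had an adjusted p below 0.05, against 67 genes or 0.416% of all genes tested. At an unadjusted p below 0.05 the count was also 0 of 10, against 11.6% of all genes. DESeq2 called 0 of the 10, against 1.97% of all genes, and had 1 of them, Cacna1s, at an unadjusted p below 0.05. The lowest adjusted p among the 10 genes in edgeR was 0.447, for Cacna1s. The log2 fold change was above 0 in 7 of the 10 genes and below 0 in Atp2a2, Sln and Pln. Its median was 0.11, against -0.01 over all genes tested. The mice of the genotypes did not overlap for 4 of the 10 genes, against 43.8% of all genes, and these 4, Cacna1s, Jph1, Atp2a1 and Casq1, were all higher in Mef2dα2 Eko mice, against 20.8% of all genes. A share of 43.8% over the whole table means that a gap between pairs of mice is common in these data.

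**Figure D2:**
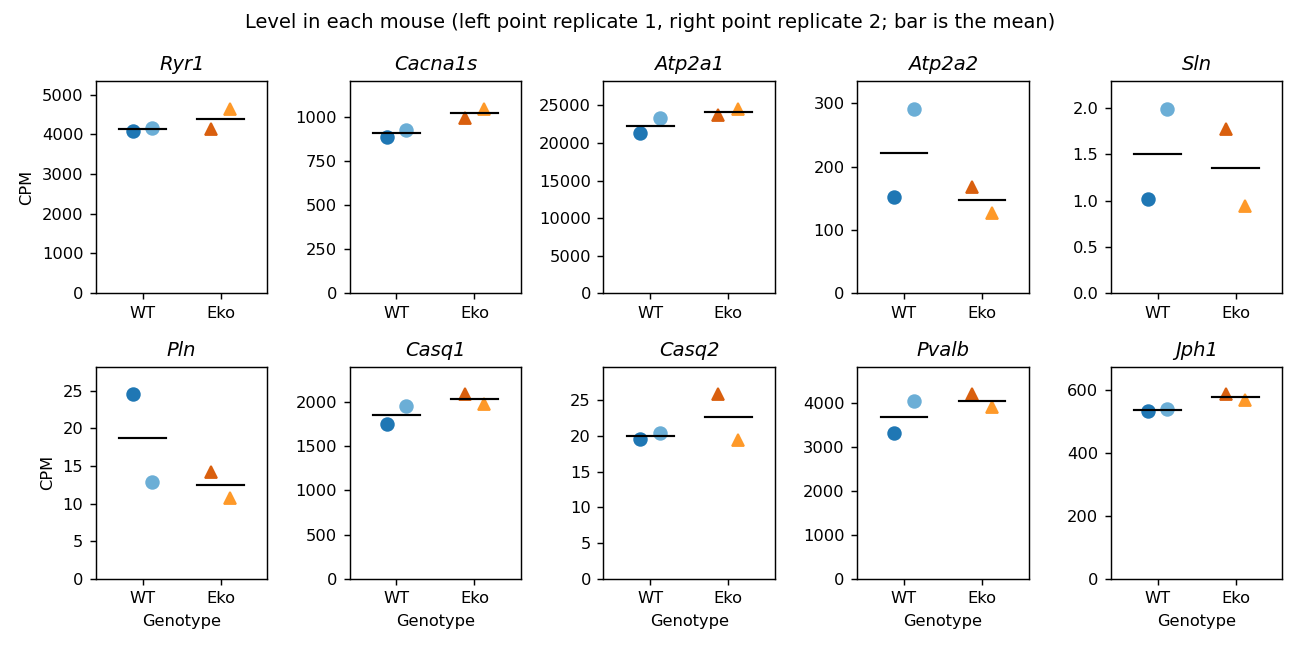
Level of each of the 10 genes in CPM, from 0, in WT (circles) and Mef2dα2 Eko mice (triangles), with replicate 1 at the left, replicate 2 at the right and a bar at the mean of each genotype. Atp2a2, Sln and Pln show a wide gap between the WT mice, and the genotypes of Cacna1s, Jph1, Atp2a1 and Casq1 do not overlap.

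The genes of the release apparatus had higher means in Mef2dα2 Eko mice, and none of them passed the test. Cacna1s, the pore-forming subunit and voltage sensor of the t-tubule channel (ENSMUSG00000026407.17, GRCm38 chromosome 1 from 136052750 to 136119822, plus strand), had 886 and 927 CPM in WT and 992 and 1045 CPM in Mef2dα2 Eko mice. Both Mef2dα2 Eko mice lay above both WT mice. The log2 fold change was 0.17 (standard error 0.07, 95% interval from -0.01 to 0.34, adjusted p = 0.447, edgeR). Leaving out 1 mouse at a time gave values from 0.13 to 0.22, none of which passed. Gm37759, an antisense gene within Cacna1s, had 398 to 493 counts, under 1% of the counts of Cacna1s in every library.

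Ryr1, the calcium release channel itself (ENSMUSG00000030592.18, chromosome 7 from 29003344 to 29125179, minus strand), had 4072 and 4169 CPM in WT and 4141 and 4644 CPM in Mef2dα2 Eko mice. One Mef2dα2 Eko mouse lay between the WT mice and the other above them. The log2 fold change was 0.09 (standard error 0.09, 95% interval from -0.12 to 0.30, adjusted p = 0.733, edgeR), and it was 0.01 without Mef2dα2 Eko replicate 2. Jph1, the triad junction protein (ENSMUSG00000042686.5, chromosome 1 from 16964560 to 17097889, minus strand), had 531 and 537 CPM in WT and 585 and 568 CPM in Mef2dα2 Eko mice. The WT mice were close to each other and both lay below the Mef2dα2 Eko mice. For Jph1 the log2 fold change came to 0.11 (standard error 0.07, 95% interval from -0.05 to 0.27, adjusted p = 0.573, edgeR).

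The ratio of release channel to voltage sensor lay within a narrow range. Per length, Ryr1 was 1.38 and 1.35 times Cacna1s in WT animals, and 1.25 and 1.33 times in Mef2dα2 Eko animals. Both Mef2dα2 Eko ratios lay below both WT ratios, and the ratio was not tested.

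The means of the SERCA pumps differed between the genotypes in opposite directions, and neither difference passed the test. Atp2a1, the fast fibre pump (ENSMUSG00000030730.12, chromosome 7 from 126445858 to 126463108, minus strand), had 21379 and 23265 CPM in WT and 23670 and 24567 CPM in Mef2dα2 Eko mice. The Mef2dα2 Eko mice lay just above the higher WT mouse. The log2 fold change was 0.11 (standard error 0.09, 95% interval from -0.11 to 0.33, adjusted p = 0.692, edgeR), an interval from 0.928 to 1.26 times the WT level. Without WT replicate 1 it was 0.05. Rabep2 on the opposite strand overlaps the end of Atp2a1 and had at most 6812 counts in a library, while Atp2a1 had at least 1622327.

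Atp2a2, the slow fibre pump (ENSMUSG00000029467.15, chromosome 5 from 122453513 to 122502225, minus strand), had 152 and 291 CPM in WT and 168 and 126 CPM in Mef2dα2 Eko mice. WT replicate 2 stood well above the other 3 mice, and WT replicate 1 lay between the Mef2dα2 Eko mice. The mean was 221 ± 98.8 CPM in WT and 147 ± 29.2 CPM in Mef2dα2 Eko mice (SD, n = 2 mice each). On the log2 scale the fold change was -0.59 (standard error 0.28, 95% interval from -1.26 to 0.08, adjusted p = 0.487, edgeR). It rested on which WT mouse was used. Without WT replicate 1 it was -0.98 with an adjusted p of 0.0274 in edgeR, where 0.591% of all genes were called, and without WT replicate 2 it was -0.03 with an adjusted p of 0.960. Of the 31-base stretches of Atp2a2, 4.49% occur in another gene, most of them in Gm30970.

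Atp2a2 was compared with markers of slow fibres, because the pump belongs to them. The summed level of 8 slow fibre genes was 266 and 676 CPM in WT and 489 and 294 CPM in Mef2dα2 Eko mice, and 0 of the 8 were called by edgeR. It was highest in WT replicate 2, as Atp2a2 was. Myh7, the slow myosin, had 113 and 339 CPM in WT and 237 and 145 CPM in Mef2dα2 Eko mice. For every 100 CPM of the slow fibre list, Atp2a2 had 56.9 and 43.1 CPM in WT and 34.3 and 43.0 CPM in Mef2dα2 Eko mice. These ratios spread less between the WT mice than the level of Atp2a2 did, and WT replicate 1 was the highest. Myh2, the myosin of fast IIa fibres, had 1576 and 1709 CPM in WT and 1264 and 1041 CPM in Mef2dα2 Eko mice (log2 fold change -0.51, adjusted p = 0.161 in edgeR, called by DESeq2). The part of either fibre type in the level of Atp2a2 was not tested, and in bulk RNA fewer fibres of a type and less RNA per fibre cannot be told apart. The summed level of 8 genes of fast IIx and IIb fibres lay between 99268 and 105416 CPM in all 4 mice, most of it from Myh4. Myh1, the IIx myosin of that list, was singled out with its values known. Its level was 4967 and 3984 CPM in WT and 3476 and 3121 CPM in Mef2dα2 Eko mice (log2 fold change -0.44, adjusted p = 0.261 in edgeR and 0.0137 in DESeq2), and both Mef2dα2 Eko mice lay below both WT mice.

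**Figure D3:**
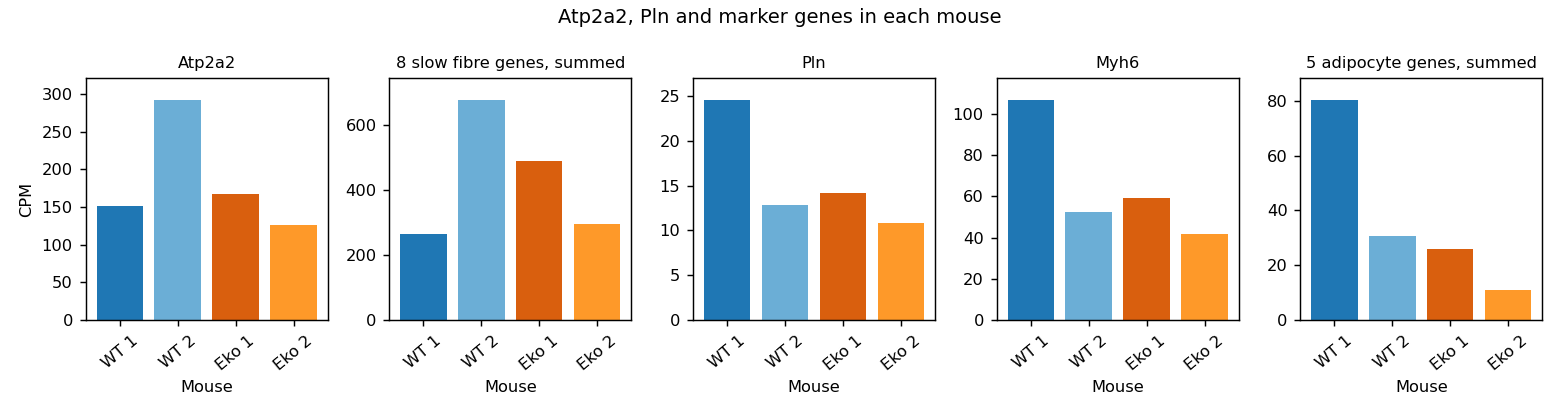
Level in CPM, from 0, of Atp2a2, of 8 slow fibre genes summed, of Pln, of Myh6 and of 5 adipocyte genes summed, with 1 bar for each mouse. Atp2a2 and the slow fibre genes are highest in WT replicate 2, and Pln, Myh6 and the adipocyte genes are highest in WT replicate 1.

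By merged exons the pump regulators had the lowest mean levels per length of the 10 genes. Among the 15636 tested genes with a length, Pln ranked 3786 and Sln 8888. Pln, the phospholamban gene (ENSMUSG00000038583.13, chromosome 10 from 53337667 to 53345987, plus strand), had 24.5 and 12.8 CPM in WT and 14.2 and 10.8 CPM in Mef2dα2 Eko mice. Here WT replicate 1 stood above the other 3 mice, and WT replicate 2 lay between the Mef2dα2 Eko mice. The mean was 18.7 ± 8.28 CPM in WT and 12.5 ± 2.42 CPM in Mef2dα2 Eko mice (SD, n = 2 mice each). The estimated log2 fold change was -0.58 (standard error 0.28, 95% interval from -1.25 to 0.10, adjusted p = 0.497, edgeR). Without WT replicate 2 it was -0.96 with an adjusted p of 0.0177 in edgeR, where 1.79% of all genes were called, and without WT replicate 1 it was -0.03 with an adjusted p of 0.976. The lower means of Atp2a2 and Pln in Mef2dα2 Eko mice thus each rested on a single WT mouse, and not on the same one.

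Pln lies inside Cep85l, a gene on the opposite strand, for which 5633 and 8738 counts came from the WT mice and 7932 and 6518 from the Mef2dα2 Eko mice. Pln itself was counted 1860 and 1035 times in WT libraries, and 1224 and 771 times in Mef2dα2 Eko libraries. Cep85l was lowest in WT replicate 1, where Pln was highest. The kit keeps strand, but the strand setting used for counting is not given in the sources used here.

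Pln had the same order of mice as Myh6, the cardiac alpha myosin. Myh6 had 106 and 52.4 CPM in WT and 58.9 and 41.7 CPM in Mef2dα2 Eko mice, and for every 100 CPM of Myh6 there were 23.0 and 24.4 CPM of Pln in WT and 24.1 and 25.9 CPM in Mef2dα2 Eko mice. Ryr2, the cardiac ryanodine receptor, had 6.17 and 3.55 CPM in WT and 3.77 and 2.35 CPM in Mef2dα2 Eko mice, the same order of mice. The cardiac list of 6 genes summed to 115 and 57.2 CPM in WT and 64.9 and 46.2 CPM in Mef2dα2 Eko mice, and 0 of its 5 tested genes were called. Most of this sum was Myh6. Myl4 of the same list went the other way, with 1.54 and 0.915 CPM in WT and 1.86 and 1.87 CPM in Mef2dα2 Eko mice (log2 fold change 0.60, adjusted p = 0.470 in edgeR). Of its defining markers, the atrial light chain Myl7 was at 0 counts in every library and Nppa was at most 0.303 CPM. The summed level of 5 adipocyte genes was also highest in WT replicate 1. It was 80.1 and 30.7 CPM in WT and 25.8 and 11.2 CPM in Mef2dα2 Eko mice, and 0 of the 5 were called by edgeR. In WT replicate 1 Cfd made up 48.5 CPM of it, while Lep was highest in Mef2dα2 Eko replicate 1 at 4.43 CPM. The macrophage and endothelial sums were highest in WT replicate 1 too, at 17.2 and 142 CPM. Those of smooth muscle, fibroblast, satellite, Schwann, tendon and blood genes were highest in a Mef2dα2 Eko mouse. The part of other cells in the level of Pln was not tested.

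Sln, the sarcolipin gene (ENSMUSG00000042045.6, chromosome 9 from 53850164 to 53854560, plus strand), was counted 77 and 161 times in WT libraries, and 153 and 67 times in Mef2dα2 Eko libraries. These were 1.01 and 1.99 CPM in WT and 1.77 and 0.937 CPM in Mef2dα2 Eko mice. Each genotype had 1 mouse near 1 CPM and 1 near 2 CPM, so the spread within a genotype exceeded the difference of the means. This gave a log2 fold change of -0.14 (standard error 0.41, 95% interval from -1.11 to 0.82, adjusted p = 0.925, edgeR), and it was 0.44 without WT replicate 2. A change of 1.77 times the WT level in one direction or to 0.464 of it in the other lay within the interval. Per length, Pln was 11.5 and 3.07 times Sln in WT and 3.82 and 5.50 times Sln in Mef2dα2 Eko mice.

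The calcium buffers of the fast fibre had a little higher means in Mef2dα2 Eko mice. Casq1, the calsequestrin of fast fibres (ENSMUSG00000007122.11, chromosome 1 from 172209894 to 172219868, minus strand), had 1754 and 1951 CPM in WT and 2084 and 1972 CPM in Mef2dα2 Eko mice. The lower Mef2dα2 Eko mouse was just above the higher WT mouse. Between genotypes the log2 fold change was 0.13 (standard error 0.09, 95% interval from -0.07 to 0.33, adjusted p = 0.607, edgeR), and 0.06 without WT replicate 1. Casq2, the calsequestrin of slow fibres and heart (ENSMUSG00000027861.13, chromosome 3 from 102086415 to 102146514, plus strand), had 19.6 and 20.4 CPM in WT and 25.8 and 19.5 CPM in Mef2dα2 Eko mice. Mef2dα2 Eko replicate 1 alone was high. As a log2 fold change the difference was 0.18 (standard error 0.13, 95% interval from -0.13 to 0.49, adjusted p = 0.649, edgeR), and without that mouse it was -0.025. Casq2 did not have its highest level in the mouse in which Atp2a2 and the slow fibre list had theirs.

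Pvalb, the cytosolic calcium buffer (ENSMUSG00000005716.16, chromosome 15 from 78191114 to 78206400, minus strand), had 3317 and 4047 CPM in WT and 4208 and 3917 CPM in Mef2dα2 Eko mice. WT replicate 1 was the lowest, and WT replicate 2 lay between the Mef2dα2 Eko mice. In the fit its log2 fold change was 0.14 (standard error 0.11, 95% interval from -0.12 to 0.41, adjusted p = 0.676, edgeR). Without WT replicate 1 it was 0.01.

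WT replicate 1 was the lowest of the 4 mice for 6 of the 10 genes, namely Ryr1, Cacna1s, Atp2a1, Casq1, Pvalb and Jph1. The same library had the highest mitochondrial share, and the part of that share in these levels was not tested. Without it, the log2 fold changes of these 6 genes remained above 0, from 0.01 for Pvalb to 0.14 for Cacna1s. The spread between WT mice, as the log2 of the higher over the lower level, was 0.94 for Atp2a2, 0.97 for Sln and 0.94 for Pln. It was 0.15 for the median gene among those tested with counts in every library. Between the WT mice Jph1 differed by 0.02 and Ryr1 by 0.03.

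**Figure D4:**
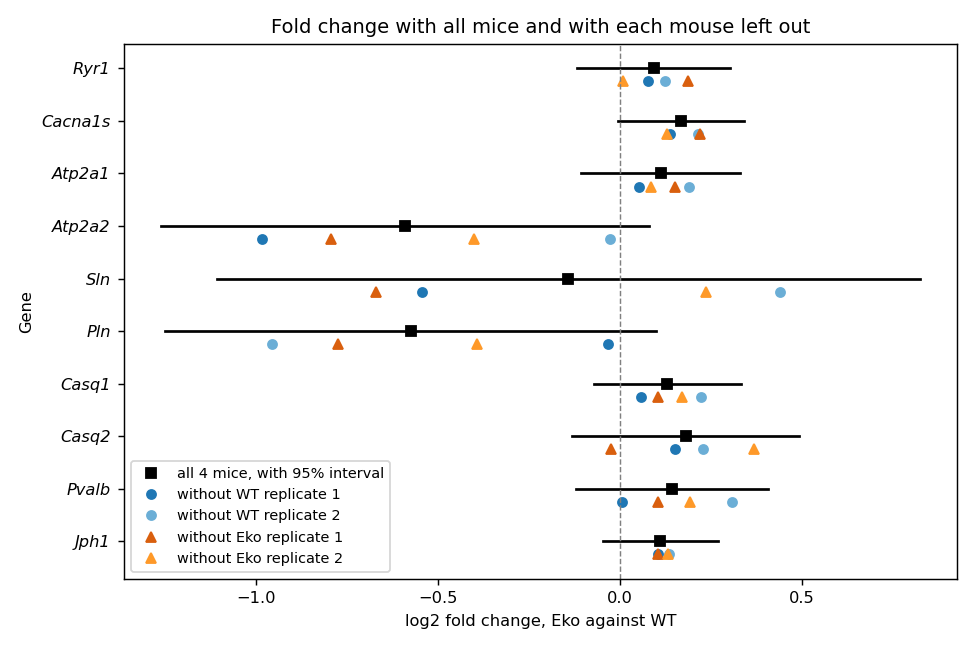
Log2 fold change of each of the 10 genes in Mef2dα2 Eko against WT mice, with all 4 mice and its 95% interval (squares and lines) and after leaving out each mouse (coloured points). Every interval includes 0, and Atp2a2 reaches -0.98 without WT replicate 1 while Pln reaches -0.96 without WT replicate 2.

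The other genes of calcium handling were described from a list of 59 genes ordered by role. Of these 57 were in the table and 54 were tested, since Ocm, Smim6 and Fkbp1b did not pass the filter, and Strit1 and Arln were not analysed here. None passed at an adjusted p below 0.05 in edgeR, which called 0.416% of all genes. At an unadjusted p below 0.05, 5 were lower and 6 higher in Mef2dα2 Eko mice, 11 of 54 against 11.6% of all genes. Fold changes on the log2 scale were below 0 in 28 and above 0 in 26 of the 54 genes, with a median of -0.01. DESeq2 called 2 of them, Slc8a3 and Micu3, against 1.97% of all genes, and Micu3 is named because of that call, after its values were seen.

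None of the named partners of the release apparatus passed the test. Cacnb1, the beta subunit of the t-tubule channel, had a log2 fold change of 0.05, Cacng1, its gamma subunit, of 0.06, and Stac3, the adaptor needed for coupling, of 0.15, with adjusted p between 0.576 and 0.808 in edgeR. Jph2, the paralog of Jph1, had 975 and 1174 CPM in WT and 1208 and 1149 CPM in Mef2dα2 Eko mice, with a log2 fold change of 0.13. Trdn, triadin, which anchors calsequestrin at the release channel, had 951 and 1187 CPM in WT and 1225 and 1170 CPM in Mef2dα2 Eko mice, with a log2 fold change of 0.16. WT replicate 1 was the lowest for Jph2 and Trdn, and also for Stac3, at 114 CPM against 133 CPM in the other WT mouse and 143 and 132 CPM in Mef2dα2 Eko mice. Ryr3, the minor ryanodine receptor, had 0.619 and 0.668 CPM in WT and 1.08 and 1.12 CPM in Mef2dα2 Eko mice. Both Mef2dα2 Eko mice were higher, and the log2 fold change of 0.77 (standard error 0.25) had an adjusted p of 0.331 in edgeR. Ryr1 and Ryr3 shared 0 stretches of 31 bases.

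The named pumps, pump regulators and luminal buffers did not pass either. Among the luminal proteins, Hrc, the histidine-rich calcium binding protein, had a log2 fold change of 0.02 and Srl, sarcalumenin, of -0.01, and 0 of the 4 luminal genes listed passed. Atp2a3, the SERCA3 pump, was at 4.43 to 5.31 CPM and had a log2 fold change of 0.17. Mrln, whose product myoregulin inhibits the pump in skeletal muscle, had 14.1 and 15.4 CPM in WT and 13.7 and 13.3 CPM in Mef2dα2 Eko mice, with a log2 fold change of -0.13 (adjusted p = 0.607 in edgeR). Ocm, oncomodulin, the paralog of parvalbumin, was at 0 counts in all 4 libraries, which allows up to 0.0419 CPM.

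Of the 3 listed genes with the largest absolute log2 fold change, 2 were exchangers of the surface membrane. Slc8a3, the sodium-calcium exchanger NCX3 of skeletal muscle, had 76.7 and 66.3 CPM in WT and 99.9 and 100.05 CPM in Mef2dα2 Eko mice. Both Mef2dα2 Eko mice were above both WT mice. Here the log2 fold change was 0.48 (standard error 0.08), with an adjusted p of 0.104 in edgeR and of 0.000159 in DESeq2. Slc8a2, the exchanger NCX2, had 0.725 and 0.927 CPM in WT and 0.336 and 0.364 CPM in Mef2dα2 Eko mice. It differed by -1.24 on the log2 scale (standard error 0.33, adjusted p = 0.241 in edgeR). Its level was low in every mouse, and the direction was opposite to that of Slc8a3. Micu3, a regulator of the mitochondrial calcium uniporter, had 17.9 and 18.0 CPM in WT and 23.1 and 23.8 CPM in Mef2dα2 Eko mice, a log2 difference of 0.39 (adjusted p = 0.118 in edgeR and 0.0169 in DESeq2).

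**Figure D5:**
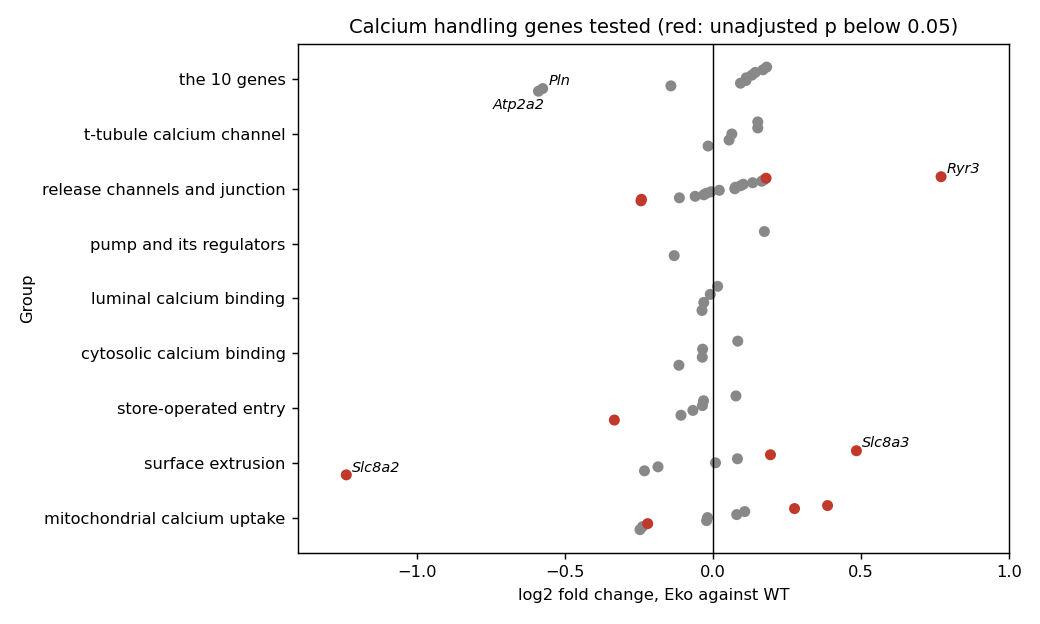
Log2 fold change in Mef2dα2 Eko against WT mice of the 10 genes and of the 54 other tested calcium handling genes, by role, with red for an unadjusted p below 0.05 in edgeR and labels for genes beyond 0.45 in either direction. Slc8a2, at -1.24, and Ryr3, at 0.77, lie farthest from 0, and none of the points passed the adjusted test.

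Without the filter on low counts edgeR called 3.25% of all genes, and 2 of the 10 calcium handling genes passed, Atp2a2 (log2 fold change -0.59, adjusted p = 2.08e-10) and Pln (-0.57, adjusted p = 6.06e-06). The fold changes of both were nearly the same as with the filter. The values without 1 mouse given above were computed with the filter.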

How the data were processed

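Quadriceps RNA of 2 WT and 2 Mef2dα2 Eko mice was measured, with 1 library per mouse. The submitters' processing notes name STAR 2.6.1a, and the authors aligned reads to mm10 and estimated expected counts per gene with RSEM, which were deposited without normalization. All values were whole numbers, so rounding changed 0 of them. RSEM divides reads that fit several genes by a model. Groups and replicate numbers came from the sample labels.

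Counts were compared with edgeR 4.0.16 in R 4.3.3 (TMM, default filter, quasi-likelihood test, Benjamini-Hochberg adjustment over the 16120 genes tested, threshold 0.05). Standard errors and 95% intervals were computed from the fold change and the F statistic. The study used DESeq2, which was run here as an alternative (1.42.0), as were RLE and upper-quartile normalization, no filter, a filter of 1 CPM in 2 libraries, the likelihood ratio test, limma-voom (limma 3.58.1), a replicate block and leaving out each mouse. Scaling by library totals alone was added after the data were seen. The test was also tested on simulated data. Total counts of 72626757 to 85176059 set the precision, and intervals on counts cover counting error only.

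The 10 genes, the lists of other calcium genes and the markers were chosen with earlier results of these data known. Named besides the 10 genes are genes of the lists that passed, the fixed partners Ryr3, Jph2, Trdn, Hrc, Srl, Atp2a3, Mrln, Stac3, Cacnb1 and Cacng1, the 3 listed calcium genes with the largest absolute log2 fold change, and single markers where a member moved with them. Positions and lengths are from GENCODE M21 (GRCm38), which holds the symbols of 92.1% of the rows and is not the annotation used for counting. The authors' other assays were not analysed here.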

Additional observations from a re-analysis of the deposited data

How the results depend on the processing

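The count of genes called among all genes was 67, and it was 799 without the filter on low counts, 23 with at least 1 CPM in 2 libraries, 318 with DESeq2, 312 with the likelihood ratio test, 186 with the replicate block and 35 with library totals only, which was added after the data were seen. Leaving out 1 mouse gave 99 to 299 genes. Of the 67 calls with all mice, 74.6% were lower in Mef2dα2 Eko mice, as were 58.5% of the 318 calls with DESeq2. None of the 10 calcium handling genes was called, except 2 without the filter (Atp2a2 and Pln), 1 without WT replicate 1 (Atp2a2) and 1 without WT replicate 2 (Pln), so that leaving out 1 mouse gave 0 to 1. Of the other calcium handling genes 0 were called, except 4 without the filter (Orai1, Slc8a2, Slc8a3 and Micu3), 2 with DESeq2 and 2 with the likelihood ratio test (Slc8a3 and Micu3 in both) and 1 with the replicate block (Slc8a3). Leaving out 1 mouse gave 0 to 1, the call being Slc8a3 without WT replicate 1 and without Mef2dα2 Eko replicate 1. Orai1 is named after its values were seen. Leaving out 1 mouse gave log2 fold changes from -0.025 to 0.37 for Casq2, below 0 without Mef2dα2 Eko replicate 1, and from -0.67 to 0.44 for Sln, above 0 without WT replicate 2 and, at 0.24, without Mef2dα2 Eko replicate 2. The cause was not tested.

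The replicate numbers name different mice. The study's text calls the mice littermates, but no source used here ties a replicate number to a litter. Replicate 1 minus replicate 2 correlated between the genotypes with r = 0.182 across 16120 genes, which are not independent. With only 2 pairs, the replicate block was an alternative only, and it called 0 of the 10 genes. Among the 10 genes Sln had the fewest counts, 67 to 161 in a library, and of the other genes described Slc8a2 had 26 to 75 and Ryr3 47 to 93.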
